A study of Homo sapiens with 12 samples.

Results

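The loci described here were enriched in the IP of dSpCas9 over an empty vector IP but had no peak over the size-matched input. They were chosen by pooling the peaks of the 4 deposited lists and joining peaks of 1 strand that lay within 10 nt of each other into loci. A locus was kept if it held a peak over the empty vector in at least 1 antibody and no peak over the input in either antibody. This selected 561 of 8501 loci, or 6.6%. They were 17.6% of the 3191 loci with a peak over the empty vector, and the other 2630 such loci also had an input peak. A further 5310 loci had input peaks alone.

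The data came from eCLIP in HEK 293T cells, a human embryonic kidney line, that were transfected with a plasmid for V5-dSpCas9, for 3xFLAG-dSpCas9 or with the empty vector. dSpCas9 is the catalytically dead Cas9 of Streptococcus pyogenes, here without a nuclear localization signal, and the plasmids named for eCLIP carried no guide RNA gene. The 12 libraries formed 6 groups of 2 replicates, namely V5 IP, FLAG IP, the size-matched input of each and the empty vector IP with each antibody. All cells were cross-linked with UV light at 400 mJ/cm2 in 2 exposures. Complexes of 115 kDa and more were cut out of the membrane. The input libraries came from the same dSpCas9 lysates without IP, while the empty vector IPs came from cells that lacked the tagged protein.

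eCLIP freezes contacts between a protein and RNA with UV light and then sequences the RNA recovered with the protein. The size-matched input samples all RNA fragments cross-linked to proteins in the same size range, so it follows the abundance of each transcript and the contacts of other proteins. The empty vector IP samples what the antibody and beads recover when the tagged protein is missing. Cas9 normally holds a guide RNA whose repeat stem has a loop with a G and a U, and the study modelled its human RNA targets as a GU-loop:5nt-stem, a GU in a loop followed by a stem of 5 paired bases.

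Each list gives 1 value per peak that combines both replicates, so single peaks carry no replicate error and no test over samples was possible. Enrichment is the log2 of the geometric mean of IP reads over control reads, and a list holds no peak under 3.00. The absence of a peak means that a site did not pass the filters of a list, not that its ratio was low. Read depth is unknown. Intervals on shares are 95% Wilson intervals that cover counting error only, and loci of 1 gene share an mRNA. All positions are 1-based on hg38, and regions refer to the canonical transcripts of GENCODE 44.

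Sequences are written 5′ to 3′ in the sense of the RNA, with T for U. Capitals mark the GU and the 5 stem bases after it wherever the GU-loop:5nt-stem was called, and 3′ UTR loci are shown by 30 central bases. The first set holds the 6 loci found with both antibodies.

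TRAF4, CDS, chr17:28748266-28748375, plus strand: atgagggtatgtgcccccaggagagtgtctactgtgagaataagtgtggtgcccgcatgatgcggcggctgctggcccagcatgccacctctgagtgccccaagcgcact
ZNF740, 3′ UTR, central bases, chr12:53188465-53188494, plus strand: aaagtgagacagatgtgttgagcaaggagt
UBAC2, 3′ UTR, central bases, chr13:99385840-99385869, plus strand: ctcccccaagctgttccaggccagaggact
GART, CDS, chr21:33534578-33534604, minus strand: gaagaagcctgcagcttcattttgagg
GART, CDS, chr21:33532391-33532458, minus strand: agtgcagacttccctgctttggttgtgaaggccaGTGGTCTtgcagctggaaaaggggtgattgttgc
MYO1C, CDS, chr17:1474616-1474688, minus strand: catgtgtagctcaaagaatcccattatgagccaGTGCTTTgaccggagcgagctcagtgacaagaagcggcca

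Only 1 of the GART sequences and that of MYO1C held a called GU-loop. The next set shows loci with some of the highest enrichments in the V5 list (EEF1G, MCM7 and TSC2) and in the FLAG list (CBL, COPS3 and KNL1).

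EEF1G, CDS, chr11:62571637-62571682, minus strand: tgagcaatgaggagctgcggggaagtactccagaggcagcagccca
MCM7, CDS, chr7:100099023-100099091, minus strand: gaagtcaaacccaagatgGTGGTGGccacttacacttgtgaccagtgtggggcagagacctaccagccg
TSC2, CDS, chr16:2081647-2081793, plus strand: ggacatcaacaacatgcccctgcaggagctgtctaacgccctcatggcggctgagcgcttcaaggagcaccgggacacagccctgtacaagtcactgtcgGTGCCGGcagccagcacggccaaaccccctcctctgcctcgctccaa
CBL, 3′ UTR, central bases, chr11:119303968-119303997, plus strand: aactatgttttagaagggctggaggtgtgg
COPS3, CDS, chr17:17254862-17254931, minus strand: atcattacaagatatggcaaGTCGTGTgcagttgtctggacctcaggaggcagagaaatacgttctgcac
KNL1, 3′ UTR, central bases, chr15:40662583-40662612, plus strand: cttctgcctagcagatatttctggagtaga

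MCM7, TSC2 and COPS3 each held the GU-loop. The last set shows a pair of loci that met an exon edge, with an input peak at the facing edge of the adjoining exon. The input peak lay downstream of the locus in PFKFB3 and upstream of it in LRP4.

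PFKFB3, CDS, chr10:6221694-6221746, plus strand: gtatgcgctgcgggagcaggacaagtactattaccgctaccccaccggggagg
LRP4, CDS, chr11:46898914-46899033, minus strand: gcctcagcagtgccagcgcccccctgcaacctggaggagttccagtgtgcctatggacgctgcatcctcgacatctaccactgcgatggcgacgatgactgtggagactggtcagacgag

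Neither PFKFB3 nor LRP4 held the motif.

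The V5 antibody supplied most of the loci. The V5 list alone gave 448, the FLAG list alone 107, and both lists 6. Of the loci with a V5 peak over the empty vector, 454 of 2330 (19.5%) lacked an input peak, against 113 of 1541 (7.33%) of those with a FLAG peak. The 6 shared loci were 1.07% of the 561, whereas 674 of the 2630 loci that also had an input peak (25.6%) appeared in both empty vector lists. In the 2630, an input peak could join a V5 and a FLAG peak that did not meet. Among the 561 this could not happen, and 527 of them held a single peak. How many loci were joined in this way was not counted. The locus of TRAF4, a signalling adaptor, had a log2 of 3.35 with V5 and 3.83 with FLAG. ZNF740, a zinc finger gene, had 3.26 with V5 and 4.45 with FLAG in its 3′ UTR. UBAC2, which encodes a ubiquitin-associated membrane protein, had 3.71 and 3.17 in its 3′ UTR. GART, the trifunctional enzyme of purine synthesis, had 2 such loci in its CDS. The upstream one showed 3.54 and 3.11, and the other 3.08 and 3.14. MYO1C, a class I myosin, had 3.67 and 3.01 in its CDS. No antibody gave the higher value throughout, since FLAG was higher at TRAF4, ZNF740 and 1 GART locus and V5 at the other 3.

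Enrichment chose these loci, so its size is a description. Most loci sat close to the lower limit of the lists. In the V5 list 42 of 454 (9.25%) reached a log2 of 4, compared with 26.1% of all loci with a V5 peak over the empty vector. In the FLAG list 6 of 113 (5.31%) did, compared with 24.6% of all loci with a FLAG peak. The median log2 was 3.39 for V5 and 3.37 for FLAG, and the FLAG values ranged from 3.00 to 5.12. Loci that also had an input peak had medians of 3.68 and 3.59. The median −log10 p was 4.29 for V5 and 4.49 for FLAG, against 5.94 and 7.97 at the loci with an input peak. Each locus took the highest log2 and the highest −log10 p of its peaks in a list. Loci that also had an input peak held a median of 3 peaks over the 4 lists, against 1 here. How much of these differences follows from the number of peaks was not tested. A log2 under 3.1 was seen at 67 V5 loci (14.8%) and 14 FLAG loci (12.4%). Of the 485 V5 peaks in these loci, 22.5% carried exactly the same log2 and −log10 p as another peak of the list, against 12.1% of the other V5 peaks. The FLAG shares were 11.1% of 117 peaks and 5.74%.

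**Figure D1:**
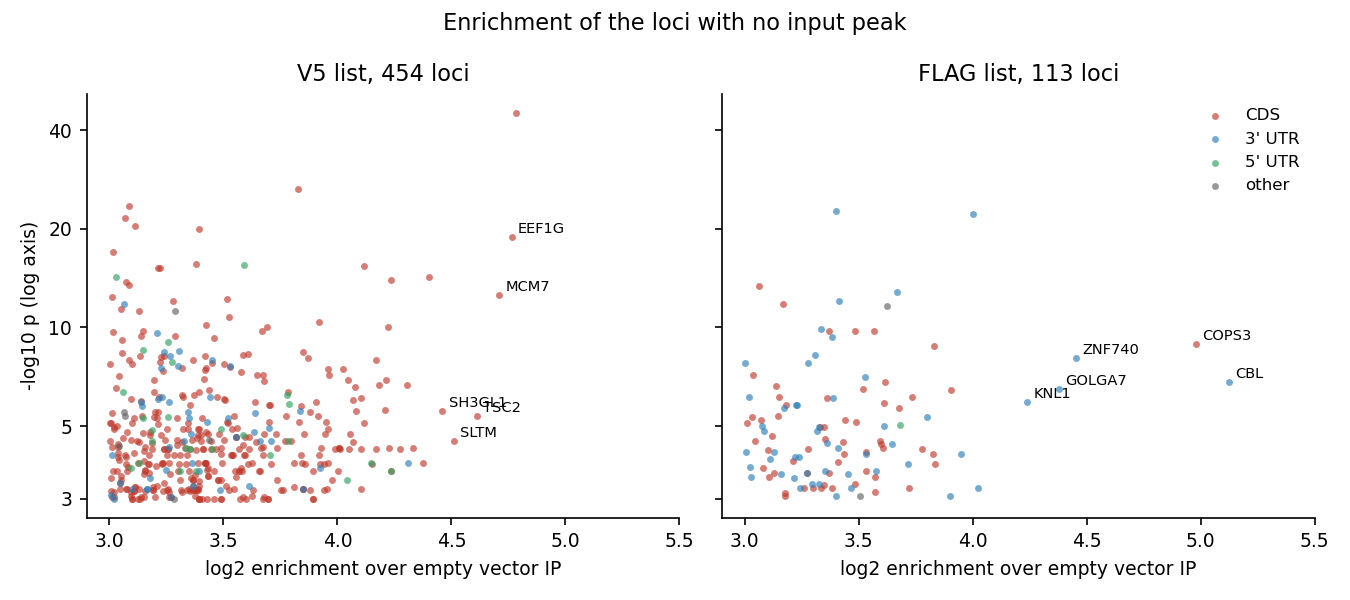
Enrichment over the empty vector IP (log2, x axis) against −log10 p (logarithmic y axis) for the 454 loci of the V5 list and the 113 of the FLAG list, 1 point per locus, coloured by gene region. Most points lie below a log2 of 4, and CBL in the FLAG list lies farthest to the right at 5.12.

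The highest V5 values belonged to coding sequences. Among them, EEF1G, a subunit of the elongation factor that delivers aminoacyl-tRNA, reached 4.76 with a −log10 p of 18.8 and MCM7, part of the replicative helicase, 4.71. TSC2, a repressor of mTOR signalling, had 4.61. It was followed by SLTM with 4.51, the endophilin gene SH3GL1 with 4.46, the cell cycle transcription factor MYBL2 with 4.40 and the inducible chaperone HSPA6 with 4.38. Each of these named loci lay in the CDS. Loci found with both antibodies were not ranked here, and none of them had a V5 value above 3.71. HSPA6 has close paralogs, so its reads may not be assigned with certainty.

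Of the loci found with FLAG alone, those with the highest values lay mostly in 3′ UTRs. ZNF740, found with both antibodies, had the third highest FLAG value. CBL, a ubiquitin ligase, had a log2 of 5.12, the highest of all 561 loci. COPS3, a subunit of the COP9 signalosome, had 4.98 in its CDS. The 3′ UTR loci of GOLGA7 and of the kinetochore gene KNL1 had 4.38 and 4.24. GID4, the substrate receptor of a ubiquitin ligase, had 4.02 and the RNA-binding protein gene KHDRBS1 4.00, the latter with a −log10 p of 22.2. The metal transporter SLC39A8 had 3.95, also in the 3′ UTR, and the endocytic adaptor EPN2 3.90 in the CDS.

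Coding sequence dominated the loci as a whole. The CDS held 430 of 561 loci (76.6%, interval 73 to 80), the 3′ UTR 96 (17.1%, 14.2 to 20.4) and the 5′ UTR 27 (4.81%, 3.33 to 6.91). Loci with a peak over both controls had 52.6% in the CDS, 37.4% in the 3′ UTR and 7.49% in the 5′ UTR. Loci with input peaks alone had 50.2%, 38.9% and 7.89%. The intervals for the CDS and the 3′ UTR did not overlap between the loci without an input peak and either of the other classes.

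This pattern was carried by V5. Among loci of the V5 list alone, 371 of 448 (82.8%, 79 to 86) were in the CDS and 45 (10%, 7.59 to 13.2) in the 3′ UTR. Loci of the V5 list alone that also had an input peak were in the CDS in 60% (57.2 to 62.7) and in the 3′ UTR in 25.6%. Among loci of the FLAG list alone, 55 of 107 (51.4%, 42 to 60.7) were in the CDS and 49 (45.8%, 36.7 to 55.2) in the 3′ UTR. Their counterparts with an input peak had 45.9% (42.4 to 49.5) and 48.5% (45 to 52.1), so the FLAG intervals overlapped. For V5, the CDS intervals of loci without and with an input peak thus did not overlap, with the higher share in loci without one. These intervals take no account of loci that share a gene. For FLAG, such a difference was not detectable with 107 loci.

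**Figure D2:**
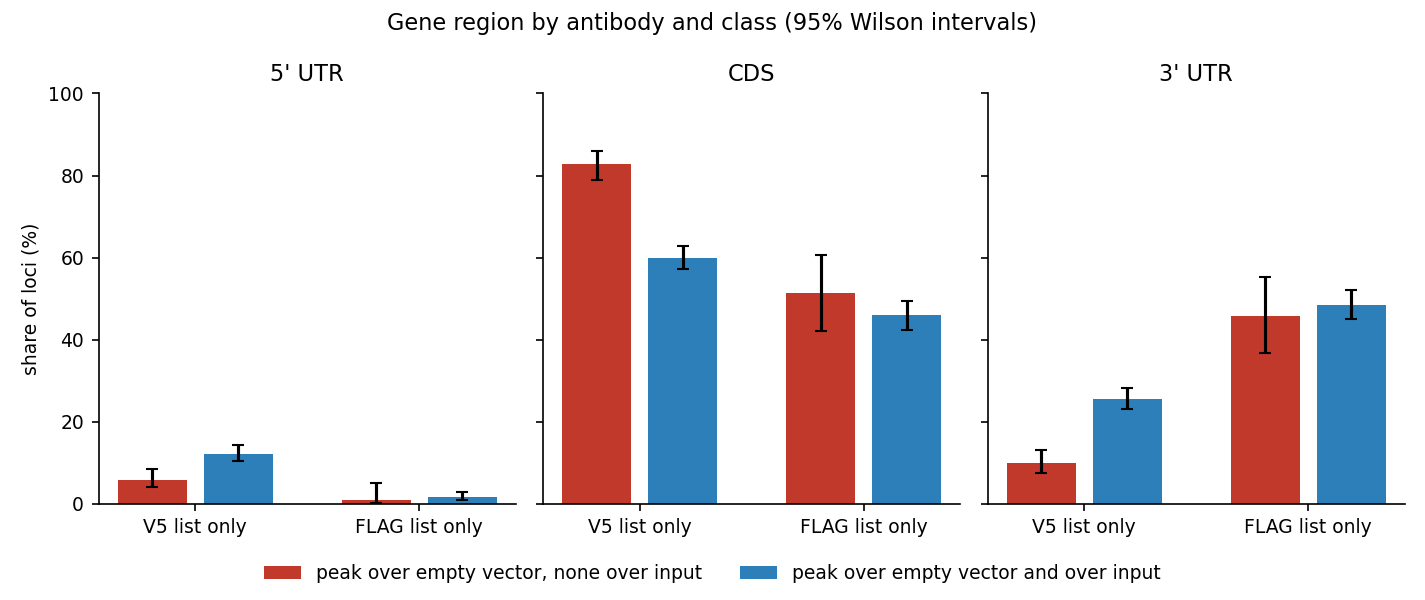
Share of loci (%, y axis) in the 5′ UTR, CDS and 3′ UTR for loci of the V5 list alone and of the FLAG list alone, red without and blue with an input peak. Bars are shares and error bars 95% Wilson intervals. The CDS share of V5 loci was 82.8% without and 60% with an input peak, while the FLAG bars overlap at 51.4% and 45.9%.

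Within the CDS the loci were spread out. When each CDS was cut into 3 equal parts, 34.7% of the 430 loci fell in the first, 37% in the second and 28.4% in the last. At the boundaries, 31 of 553 mRNA loci (5.61%, 3.98 to 7.85) covered the first base of the start codon, compared with 8.31% (7.3 to 9.44) of loci with both kinds of peak and 5.11% (4.54 to 5.75) of loci with input peaks alone. The highest of them was SLTM at 4.51, and EXOC5, a subunit of the exocyst, had 4.15. The last coding base before the stop codon was covered by 16 loci (2.89%, 1.79 to 4.65), compared with 3.86% and 3.42%, with the tubulin ligase family gene TTLL12 highest at 3.83. In the 3′ UTR, 67 of 96 loci (69.8%, 60 to 78.1) had their midpoint in the first 50% of the UTR. The share was 61.2% (58.2 to 64.2) of loci with both kinds of peak and 64.3% (62.2 to 66.4) of loci with input peaks alone. All but 1 of the 27 loci in 5′ UTRs were V5 loci. The exception was FAM53C, with a FLAG log2 of 3.68. Named 5′ UTR loci included CUL5, a ubiquitin ligase scaffold, at 4.04 and the serum response factor gene SRF at 3.49. The start codon, stop codon and 5′ UTR genes were named after their values were seen.

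Few loci lay outside mRNA. The 5 noncoding RNA loci were in FIRRE (FLAG, 3.62), the pseudogene transcript RNF216P1 (FLAG, 3.51), EPB41L4A-AS1 (V5, 3.29 and 3.04) and SNHG7 (V5, 3.07). On the spliced transcript, the loci of FIRRE and SNHG7 each lay 0 nt from an input peak. FIRRE is a nuclear long noncoding RNA, and SNHG7 is the host transcript of small nucleolar RNAs. RNF216P1 is a pseudogene copy of a coding gene, and its reads may not be separable from those of that gene. Another 2 loci lay in introns of the canonical transcripts of RPL15 and TSC22D3, and other transcripts of these genes placed both in exons. A single locus was intergenic by canonical transcripts. No small noncoding RNA and no mitochondrially encoded RNA was among the 561, but these made up only 0.235% and 0.0235% of all loci, so no difference was detectable with 561.

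The genes involved were mostly not free of input peaks. The loci fell in 457 genes, and 337 of these had an input peak elsewhere. Another locus of the same gene with an input peak was found for 414 of 561 loci (73.8%, 70 to 77.3). The share was 83.5% (82 to 84.9) for loci with both kinds of peak and 73.8% (72.6 to 74.9) for loci with input peaks alone. The remaining 120 genes (26.3%) had no input peak at all and held 146 of the loci. Of these 146, 110 were in the CDS, 115 came from V5 alone, 29 from FLAG alone and 2 from both, and 12 reached a log2 of 4. Their median log2 of 3.39 equalled that of all 561 loci.

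FASN, the fatty acid synthase, had 4 loci and no input peak. All 4 were V5 loci in the CDS, with log2 values of 4.18, 3.68, 3.45 and 3.42. MCM3AP, which acts in mRNA export, also had 4 V5 loci in the CDS, from 3.01 to 3.51, but next to 3 loci with input peaks. Another 14 genes had 3 loci, 69 had 2 and 372 had 1, so the order of genes by count is tied from the third place on. Loci parted by an intron were counted separately even where they lay within 10 nt on the spliced mRNA. In FASN such a pair lay at mRNA positions 6095 to 6134 and 6135 to 6209, and in CDCA7 at 718 to 791 and 792 to 912. The pair in DTL lay at 521 to 602 and 605 to 618, and that in STUB1 at 786 to 902 and 904 to 936. Such pairs in genes with fewer loci were not counted. ASNS, the asparagine synthetase, had 3.88, 3.64 and 3.38 at its 3 V5 loci, all in the CDS, with no input peak. CDCA7, a cell cycle gene, had 3.50, 3.39 and 3.29, and the initiation factor subunit EIF3D 3.87, 3.37 and 3.21, in both cases with V5 in the CDS and without an input peak. The formin INF2 had 3.50, 3.43 and 3.39 under the same conditions. DTL, a substrate adaptor of a ubiquitin ligase, was the only 1 of these 16 genes whose loci came from FLAG, with 3.49, 3.37 and 3.10. TRABD completed the 7 of 16 genes that had no input peak.

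The other 9 genes mixed the classes along 1 mRNA. In LONP1, the mitochondrial matrix protease, 3 V5 loci with a log2 of 3.00 to 3.47 lay around 2 CDS loci that reached 5.46 and 5.17 over the empty vector and 3.89 and 3.65 over the V5 input. In MARS1, the methionyl-tRNA synthetase, 3 V5 loci of 3.02 to 3.65 lay among 7 loci with both kinds of peak, of which the highest had 5.61 over the V5 empty vector. In PSMB4, a proteasome subunit, the 3 V5 loci had 3.57, 3.22 and 3.08, and the 2 loci with an input peak 4.75 and 3.95. Thus in LONP1 and PSMB4 each locus without an input peak had a lower enrichment over the empty vector than the loci with both kinds of peak. This order did not hold in the other genes that had such loci. In MARS1, MCM7, COQ8A, MCM3AP and CBX6, at least 1 locus without an input peak exceeded a locus with both kinds. The V5 values were 4.71 against at most 3.82 in MCM7, and 4.05 against 3.60 in COQ8A. In STUB1, a ubiquitin ligase, the 3 loci (3.96, 3.39 and 3.17) all exceeded the locus with an input peak (3.07). In the Polycomb gene CBX6, 3 V5 loci of 3.14 to 3.27 stood among 14 other loci. COQ8A, which serves coenzyme Q synthesis, MCM7, and the ubiquitin ligase gene TRAF7 also held 3 V5 loci each. All of TRAF7's input peaks lay 3′ of its 3 loci.

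**Figure D3:**
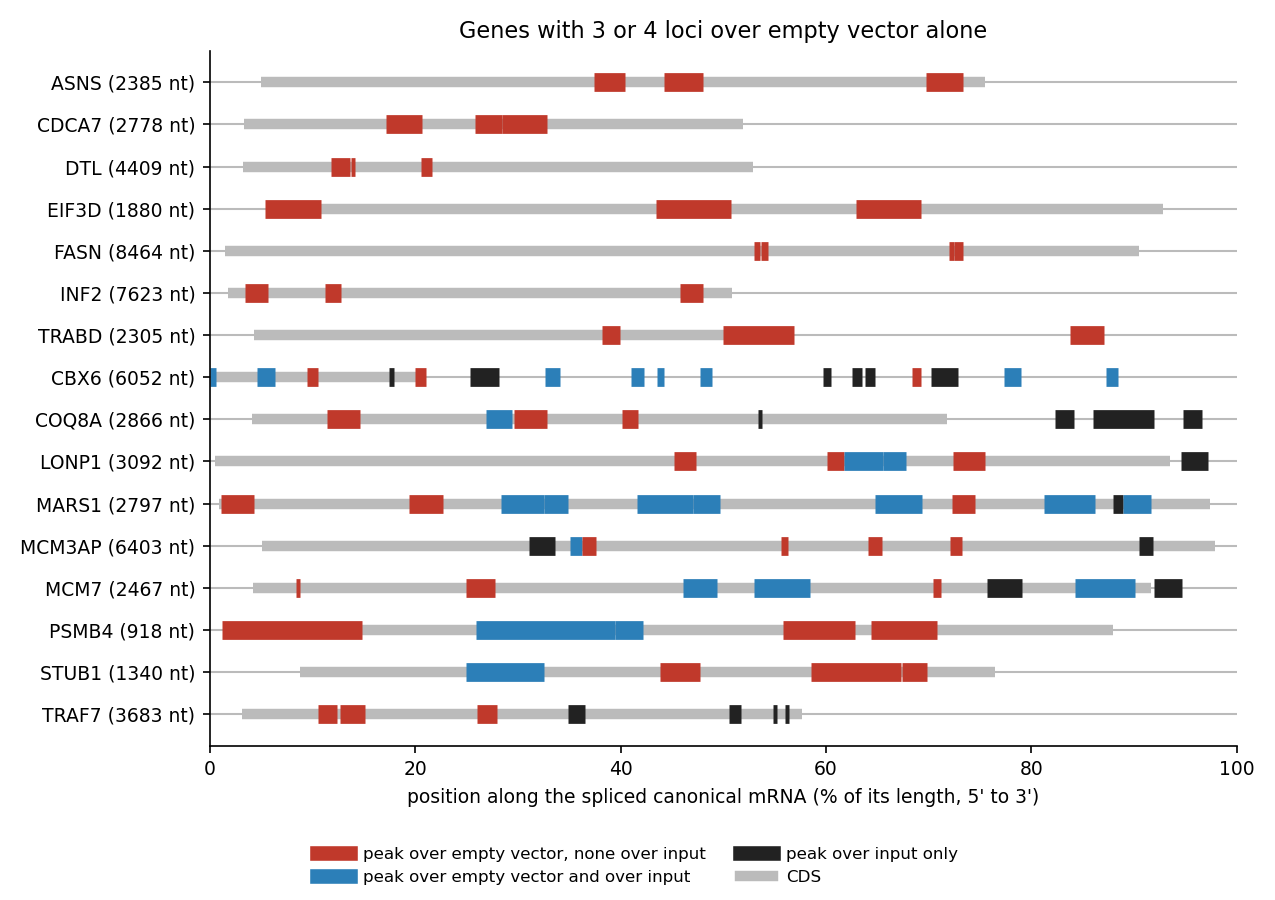
The 16 genes with 3 or 4 of the loci, each drawn along its spliced mRNA (x axis, % of its length, with the length in nt beside the symbol). Red blocks are loci over the empty vector alone, blue blocks loci with both kinds of peak, black blocks loci with input peaks alone, and the thick grey bar is the CDS. The 7 genes at the top, ASNS to TRABD, hold red blocks alone.

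The distance to the nearest input peak was measured along the spliced mRNA, because peaks were joined by their distance on the genome. An input peak was found on the same mRNA for 412 loci, at a median of 264 nt (interval of the median 222 to 304). For 50 loci no base lay between them and the input peak, and for 64 (11.4%, 9.04 to 14.3) it lay within 10 nt. On the genome none of the 561 lay within 10 nt of an input peak, which the rule requires. Of the 64, 61 had an end within 2 nt of an exon edge and 62 were in the CDS. By antibody, 46 were V5 loci, 17 FLAG loci and 1 both. Such a locus and its input peak lay on either side of an intron, and by the spliced distance they would have counted as 1 locus with both kinds of peak.

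EEF1G was among them, at 4 nt from a V5 input peak with a log2 of 3.08, against 4.76 over the empty vector. At PFKFB3, a regulator of glycolysis, the V5 value over the empty vector was 4.33, and the V5 input peak on the next exon had 3.83. LRP4, a receptor at the neuromuscular junction, had 3.89 beside a FLAG input peak of 3.92. SF3B3, a splicing factor subunit, had 3.85 beside a V5 input peak of 3.83, and the RNA polymerase III gene POLR3E 3.85 beside one of 3.12. TRAF4 was the only 1 of the 6 loci with both antibodies in this set, with 4 nt to a FLAG input peak of 4.13. The median length of these 64 loci was 55 nt (39 to 71), compared with 81.5 nt (76 to 86) for the 348 loci whose input peak lay farther away. Their median log2 was 3.43 against 3.39.

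**Figure D4:**
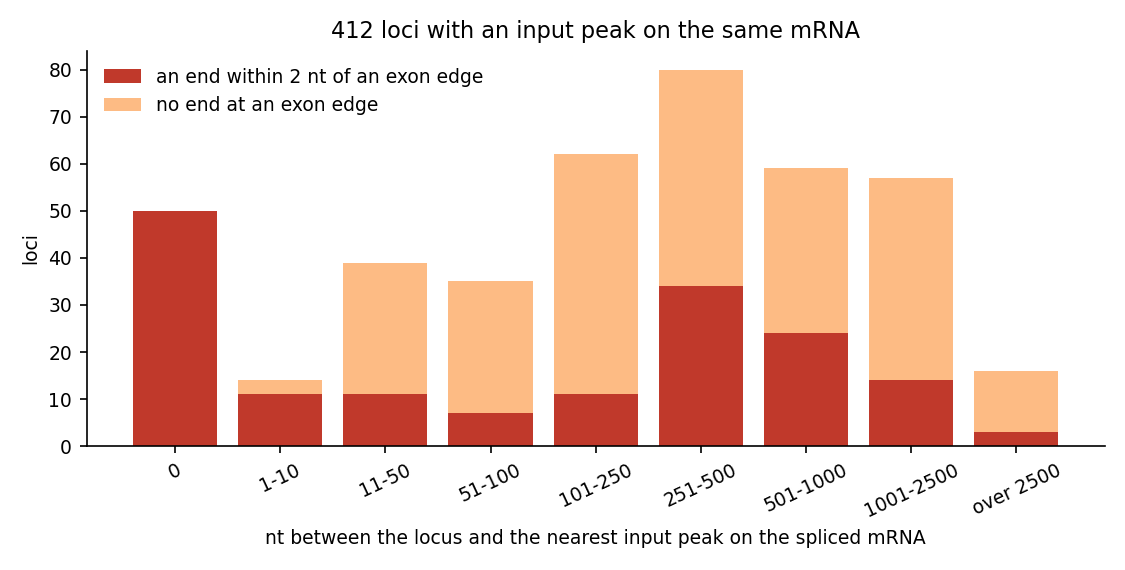
Number of loci (y axis) by the distance in nt to the nearest input peak on the spliced mRNA (x axis), for the 412 loci with such a peak. Dark red marks loci with an end within 2 nt of an exon edge. All 50 loci at distance 0 and 11 of the 14 at 1 to 10 nt touched an exon edge.

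Away from exon edges the limit of the rule fell between close neighbours. The loci just inside it were HASPIN, whose CDS locus (V5, 3.42) lay 12 nt from an input peak, DYNC2I2 (V5, 3.05) at 13 nt and EIF4EBP1 (V5, 3.30) at 13 nt. Just outside it were SLC3A2, where a V5 peak of 3.05 was joined to an input peak across 4 nt, and FLCN, where a FLAG peak of 3.40 was joined across 2 nt. These 2 were the only loci in which a gap, rather than an overlap, joined the lists. In all, 6 loci lay within 20 nt of an input peak on the genome and 24 within 50 nt.

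The genes were also grouped by their symbols into lists named for a function. Genes of the same function with other symbols were left out, such as MYBL2 for the cell cycle. The list of translation factors and tRNA synthetases held the most loci, with 24 (4.28%) in 17 genes. The share was 2.32% of loci with both kinds of peak, 1.21% of loci with input peaks alone and 1.75% of all loci. Of the 24, 22 were V5 loci and 19 were in the CDS, and the median log2 was 3.31. EEF1G led at 4.76, then EIF3D at 3.87 and MARS1 at 3.65, and other synthetase genes with loci were EPRS1 (3.59), YARS1 (3.58), WARS1 (3.36), AARS1 (3.29 and 3.19), TARS1 (3.04) and IARS1 (3.02). EIF4EBP1 and EIF4EBP2, which bind and block the cap-binding factor, were counted in this list by their symbols, with 2 loci and 1 locus. Cytoplasmic ribosomal proteins had 20 loci (3.57%) in 16 genes. This compared with 4.18% of loci with both kinds of peak, 0.81% of loci with input peaks alone and 2.04% of all loci. RPL27A at 4.21 and RPL13A at 3.83 were among the highest, but the median of the list was 3.10 and 19 of the 20 were V5 loci. Ribosomal protein genes have many processed pseudogenes, so their counts are uncertain.

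Cell cycle genes had 18 loci (3.21%) in 10 genes, against 1.37% of loci with both kinds of peak and 1.34% of all loci. MCM7 led at 4.71, then the transcription factor E2F3 at 3.96 and CCNB1IP1 at 3.57. The helicase subunits MCM2, MCM4, MCM5 and MCM7 contributed 7 of the 18 loci and the export factor MCM3AP, which shares their symbol, 4. In all, 17 of the 18 lay in the CDS and 17 came from V5. Splicing and RNA-binding genes had 16 loci (2.85%) in 15 genes, against 1.63% and 1.33%. SF3B3 led at 3.85, followed by the helicase DDX20 at 3.68 and the hnRNP gene RBMX at 3.58. These SF3B3 and RBMX loci lay 0 nt from an input peak on the spliced mRNA. Of the 15 genes, 8 had no input peak, among them SRSF2, SRSF3 and HNRNPA3, against 26.3% of all 457 genes with loci. The counts were 3 of 17 genes for translation factors and synthetases, 3 of 16 for ribosomal proteins and 1 of 10 for the cell cycle.

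The other lists are given beside their share of all loci. Ubiquitin and proteasome genes had 13 loci (2.32% against 1.84%), led by the deubiquitinase USP11 at 4.07, UBAC2 at 3.71 and PSMB4 at 3.57. Chromatin genes had 12 (2.14% against 1.48%), led by the DNA methyltransferase DNMT1 at 4.07, the demethylase KDM5B at 3.59 (FLAG) and the Polycomb gene CBX2 at 3.55. Solute carriers had 11 (1.96% against 2.11%), led by both SLC39A8 loci at 3.95 and 3.47 (FLAG) and the amino acid transporter SLC7A5 at 3.52. Heat shock and chaperone genes had 8 (1.43% against 1.31%), led by HSPA6 at 4.38, the small heat shock protein gene HSPB1 at 3.91 and the co-chaperone DNAJB1 at 3.73. The KDM5B and DNAJB1 loci each lay 0 nt from an input peak on the spliced mRNA. Zinc finger genes had 6 (1.07% against 1.48%), led by ZNF740, ZNF692 (3.24) and ZNF367 (3.19). Cytoskeleton genes had 3 (0.535% against 0.976%), among them KIF1C at 3.43 and ACTR1A at 3.31 (FLAG). Nuclear genes for mitochondrial proteins had 3 (0.535% against 1.24%), namely COX15 at 3.36 (FLAG) and TOMM20 at 3.20 and 3.11. Histone genes had a single locus (0.178% against 0.623%), in MACROH2A1 at 3.39, and the 5 lncRNA loci made up 0.891% against 0.741%. Loci of 1 gene are not independent, and no list was tested.

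A set of 7 genes that includes stress genes followed in the study by other assays (CDIP1, ATF3 and CDKN1A) held 1 of the loci. The study ranked these 3 genes near the top of its targets, which needed peaks over both controls with both antibodies. The 7 genes held too few loci of any class for a difference to be read from this count. CDIP1 had 0 such loci and 4 with both kinds of peak, ATF3 0 and 7, CDKN1A 0 and 10, and AEN 0 and 10. TRIM28, a chromatin corepressor, had 1 in its CDS (V5, 3.15), 152 nt along the mRNA from an input peak, and 11 with both kinds of peak. ACTB, an actin gene, had no locus of any class, and GAPDH, a glycolytic enzyme gene that served as the qPCR reference, had 1 with an input peak alone.

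The loci were short. Their median length was 83 nt (78 to 86), compared with 108 nt (106 to 112) for loci with both kinds of peak and 80 nt (79 to 81) for loci with input peaks alone. A locus joined from several peaks is longer by construction, and 527 of the 561 held a single peak. Loci up to 24 nt numbered 36, of which 27 touched an exon edge. GC content had a median of 60.4% (59.4 to 61.5), compared with 58.6% (58.2 to 59) and 60% (59.7 to 60.2). It differed more by antibody, with 62.2% (61.2 to 63.1) for loci of V5 alone and 52% (50 to 55) for loci of FLAG alone. The same order held for loci that also had an input peak, with 61.7% and 55.2%. By region, the median was 72.2% in the 5′ UTR, 61.3% in the CDS and 54.6% in the 3′ UTR, so the antibodies' regions and GC content moved together. The part of region in the GC difference was not tested. Exon edges were touched by 215 of the 430 CDS loci (50%, 45.3 to 54.7), compared with 62.9% (60.4 to 65.4) and 46% (44.1 to 47.9).

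The GU-loop:5nt-stem was called in 220 of the 561 loci (39.2%, 35.3 to 43.3). It was called in 56.3% (54.4 to 58.2) of loci with both kinds of peak and in 44.3% (43 to 45.6) of loci with input peaks alone. The dinucleotide itself was about as frequent, with a median of 5.88 GU per 100 nt against 6.08 and 6.12. Longer loci have more places for the motif, so shares were set side by side within classes of length. In loci of 50 to 99 nt, the motif was found in 39.2% (33.5 to 45.3) of 260 loci without an input peak, 46.6% (43.2 to 49.9) of those with both kinds of peak and 42.6% (40.7 to 44.5) of those with input peaks alone. In loci of 100 nt and more, the shares were 56.8% (49.6 to 63.8), 67.6% (65.2 to 69.9) and 64.8% (62.4 to 67.1). In loci of 25 to 49 nt, they were 13.4% (7.66 to 22.4), 25% (19.6 to 31.4) and 21.7% (18.9 to 24.8). Loci without an input peak had the lowest share in each of these 3 classes, but apart from the gap to loci with both kinds of peak at 100 nt and more, the intervals overlapped. That class has no upper limit, so length was not held equal in it. Its longest locus had 278 nt without an input peak and 582 nt with both kinds of peak. Up to 24 nt, 3 of 36 loci held the motif (8.33%, 2.87 to 21.8), against 10.7% and 7.16%, so in this class the share was not the lowest. By region, the share was 35.8% in the CDS, 50% in the 3′ UTR and 55.6% in the 5′ UTR. Loci with input peaks alone had 37.6%, 51.9% and 49.6%, and loci with both kinds of peak 49.6%, 64.2% and 64.5%. The shares by region were not split by length. By antibody, the share was 39.5% for V5 alone and 38.3% for FLAG alone.

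**Figure D5:**
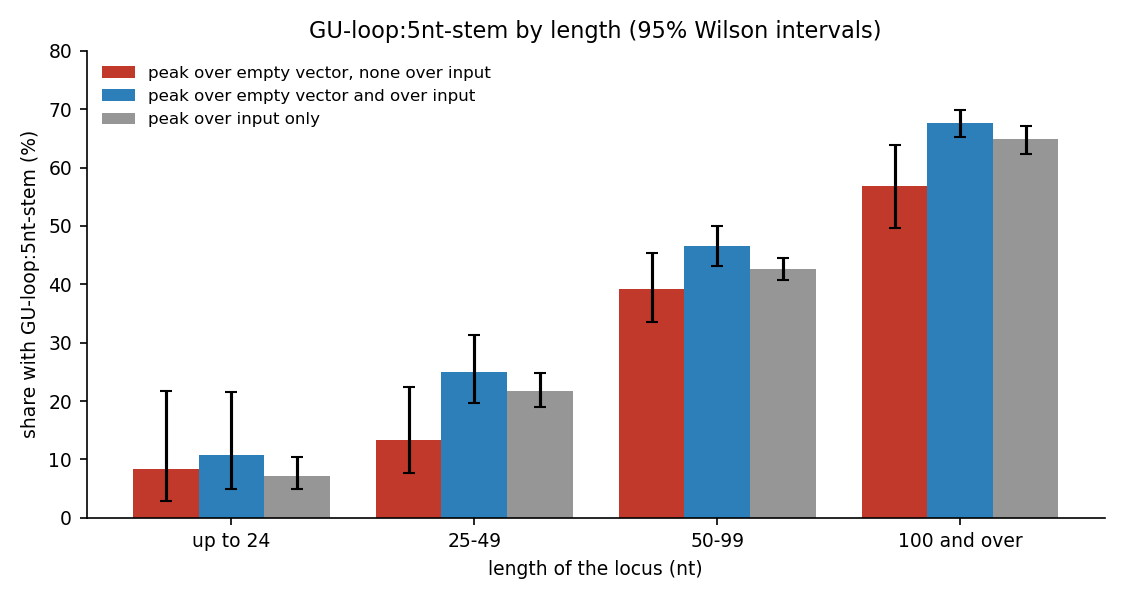
Share of loci with the GU-loop:5nt-stem (%, y axis) by length of the locus in nt (x axis). Red bars are loci over the empty vector alone, blue bars loci with both kinds of peak, grey bars loci with input peaks alone, and error bars are 95% Wilson intervals. In each class from 25 nt upward the red bar is the lowest, though not up to 24 nt, and at 100 nt and more it stands at 56.8% against 67.6% and 64.8%.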

How the data were processed

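The 12 eCLIP libraries entered as 4 peak lists, 1 per antibody and control, each from 2 IP and 2 control libraries. Reads were aligned to hg38, and per the submitters' processing notes UMI-tools 1.0.0, cutadapt 1.14, STAR 2.4.0i and SAMtools 1.6 were used. The authors called peaks, compared IP with control reads and combined the replicates by their Irreproducible Discovery Rate. For each peak the authors deposited a log2 value, taken from the geometric mean of the IP to control ratios. They also deposited the −log10 of its p-value. The peak caller's version and annotation and the scaling for library size are not given in the sources used here. The depth is unknown.

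Peaks were merged within 10 nt by strand. Genes and regions were read at the midpoint of each locus from GENCODE 44. RNAplfold (ViennaRNA 2.7.2, window and span 70) folded each locus with 50 nt on either side, and a GU-loop needed a U paired below 0.7 and 5 bases each above 0.5. Sequences came from hg38. Python 3.11.15, pandas 2.3.3, numpy 2.4.6, scipy 1.17.1, pysam 0.24.0 and bedtools 2.31.1 were used. The merging was checked against bedtools, which gave 8501 identical loci of 8501. On simulated data, 600 of 600 planted loci of the class described were recovered, and the motif was called in 200 of 200 planted hairpins and 0 of 200 without the GU.

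The members and gene lists were chosen with earlier results of these data known. Named genes were the loci in both lists, the 8 highest of each list outside these and the 5 genes with the most loci. Also named were the 3 highest of each list by symbol with at least 3 loci, the loci nearest the limit of the rule and noncoding RNAs. A set of 7 genes with CDIP1, ATF3 and CDKN1A completed them. Of the genes this rule selects, 2 are not reported here. Further genes were named after their values were seen where they illustrate a count. Merging distance, strand, enrichment and p limits, annotation and motif settings were varied. Expression and binding assays of the study were not analysed here.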

Additional observations from a re-analysis of the deposited data

How the results depend on the processing

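Merging peaks within 0, 50 or 100 nt gave 575, 535 and 504 loci, and ignoring strand gave 559. Merging within 100 nt gave 3 loci with both antibodies in place of 6. With empty vector peaks of a log2 of at least 4 there were 48 loci and 0 with both antibodies, and 81.2% of the 48 were in the CDS and 12.5% in the 3′ UTR, with a median GC content of 62.4%. With a −log10 p of at least 5 there were 203 loci and 0 with both antibodies. The share with the GU-loop fell from 39.2% to 23.5% with a loop U paired below 0.5 and to 10.9% with stem bases above 0.7. Alternatives chosen after seeing the data set the antibodies apart. Loci with a V5 peak had 82.6% in the CDS and 10.4% in the 3′ UTR, and loci with a FLAG peak 52.2%, 45.1% and, in the 5′ UTR, 0.885%. Leaving out the 64 loci within 10 nt of an input peak on the mRNA, also chosen after seeing the data, gave 497 loci with 74% in the CDS and 19.3% in the 3′ UTR. The other alternatives stayed within the interval of the value reported, or within 1.5 times for counts.

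No paired analysis was possible because each list has 1 value per peak that combines both replicates, and for the same reason no replicate was left out of the 561 loci. Read depth is unknown, and no interval is given for an enrichment.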
